A study of Mus musculus with 8 samples.

Results

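Mural cells are the pericytes and smooth muscle cells that wrap the endothelial tube of blood vessels. The genes described here are 10 that are known to mark them, taken by name with no cutoff on their values: Rgs5, Kcnj8, Abcc9, Cspg4, Notch3, Mcam, Acta2, Myh11, Tagln and Des. They were chosen with earlier results of these data known. All 10 were found among the 35975 genes of the tables. All 10 were also among the 13343 genes that passed the filter on low counts. They were measured by bulk RNA sequencing of syngeneic fibrosarcomas grown under the skin of WT C57BL/6 mice. Every library came from such a tumor, digested with collagenase and DNase I and freed of red cells by lysis, so both groups share these steps. Magnetic columns then split each digest into an iron positive fraction, which the column held, and an iron negative fraction, which flowed through. Each fraction has 4 libraries, tagged 3L, 3R, 4R and 5L, and each tag occurs in both fractions. The labels name no antibody sort, so any cell of the tumor could enter either fraction, and they do not say whether the tags are separate animals. The p-values therefore measure the spread between these libraries.

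Libraries held 19036520 to 24306607 estimated counts. Macrophage transcripts were abundant in both fractions. Levels are given in CPM, counts divided by library size, here scaled with TMM, the trimmed mean of M values, and put on a total of 1e+06. The macrophage gene Csf1r, the receptor for colony stimulating factor, stood at 2681 to 2850 CPM in the iron negative libraries. In the iron positive libraries it stood at 1502 to 2088 CPM. Csf1r had the largest fall of 14 macrophage genes listed, of which 5 were called lower and 0 higher in the edgeR test described below. That test called 5.21% of all tested genes lower and 8.49% higher. The other macrophage genes were not called. Among them was the highest, Lyz2, at 9951 CPM on average in the iron negative and 10712 CPM in the iron positive libraries. Summed, the 14 came to 29847 to 32798 CPM and 22435 to 30240 CPM. Mural genes were thus minor transcripts in every library. In bulk RNA, more cells of a type and more RNA per cell cannot be told apart.

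Pericytes sit on capillaries within the basement membrane, are recruited by endothelial PDGF-B through the receptor Pdgfrb, and steady the vessel. Vascular smooth muscle cells circle arterioles and larger vessels and contract by means of actin and smooth muscle myosin. The contractile programme is switched on by serum response factor and its cofactor myocardin at CArG boxes, and Notch3, which receives ligands from endothelium, maintains the arterial smooth muscle state. Several of these genes are not exclusive: activated fibroblasts and sarcoma cells use Acta2 and Tagln, skeletal muscle uses Des, endothelium can carry Mcam, and other progenitor cells carry Cspg4.

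The mural genes formed 2 sets. Rgs5, Kcnj8, Abcc9, Notch3, Mcam, Myh11 and Des were low in the iron negative libraries (0.127 to 4.01 CPM on average) and 22.9 to 55.6 times higher in the iron positive ones, whereas Cspg4, Acta2 and Tagln were present in both fractions and 1.28 to 2.27 times higher by the fitted fold change. Of the 10 genes, 7 were called higher and 0 lower (quasi-likelihood test of edgeR, adjusted p under 0.05 after Benjamini and Hochberg), against 8.49% of all tested genes called higher and 5.21% called lower. In the same 7 genes every iron positive library lay above every iron negative one, which held for 11.2% of all tested genes. Of the 10 genes, 9 were higher in the iron positive library of all 4 same-tag pairs, against 22% of tested genes. Kcnj8 and Myh11 had at most 6 and 7 reads in any iron negative library. They passed the filter on low counts only through the iron positive libraries. Their separation and pair order were therefore fixed by that filter and add nothing to these counts. The calls, though not the sizes of the differences, were nearly all lost without any 1 of the iron negative libraries: edgeR called 0 of the 10 without iron negative 3L, 3R or 4R and 1 (Des) without iron negative 5L. Those fits called 0%, 0%, 0% and 0.191% of all tested genes higher, so the loss was not particular to mural genes. At an unadjusted p under 0.05 they counted 8, 9, 9 and 8 of the 10, and the log2 fold change stayed between 5.27 and 6.15 for Rgs5 and between 4.92 and 5.77 for Des. Without iron positive 4R 5 were called (2.96% of all genes), as Abcc9 and Mcam then stood at adjusted p = 0.059 and 0.0505.

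**Figure D1:**
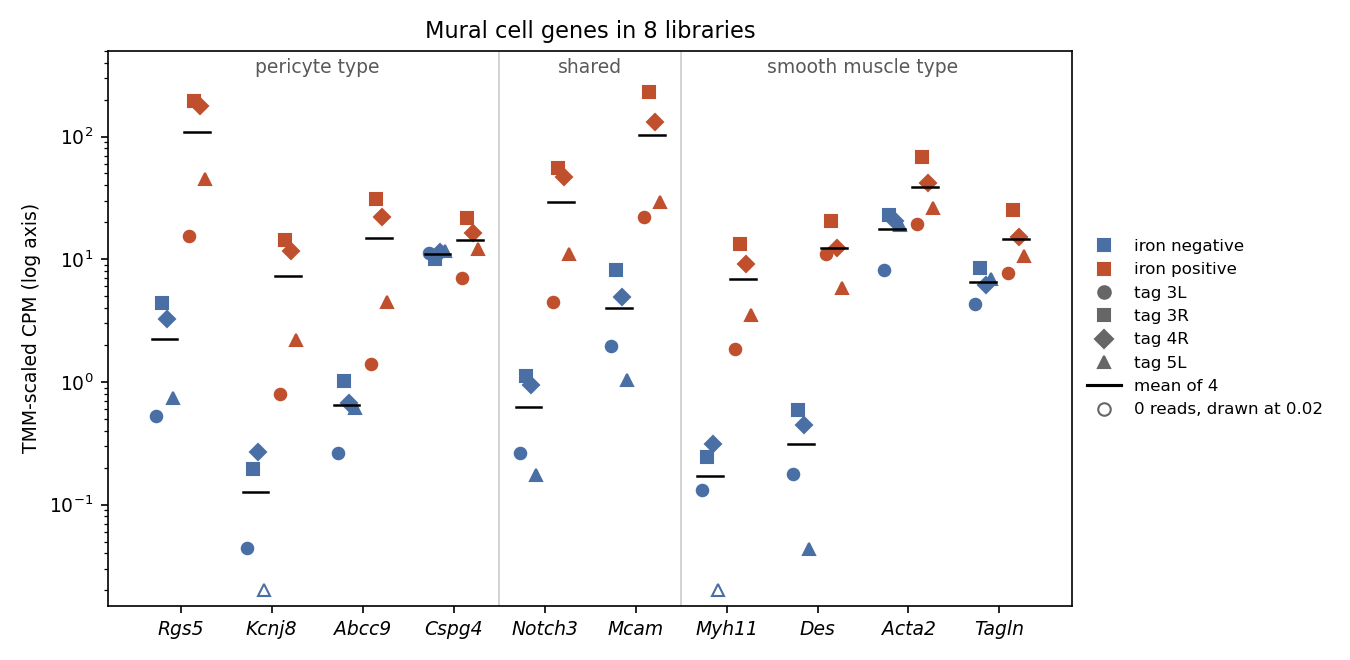
TMM-scaled CPM (log axis) of each mural gene in each of the 8 libraries, blue for iron negative and red for iron positive, with 1 symbol per tag and a bar at the mean of 4. The 2 colours do not overlap for Rgs5, Kcnj8, Abcc9, Notch3, Mcam, Myh11 and Des, and overlap for Cspg4, Acta2 and Tagln.

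Among the genes of pericyte type, Rgs5 had the highest level in the iron positive fraction, and Cspg4 in the iron negative fraction. Rgs5 encodes a regulator of G protein signalling that shortens the signal of vasoactive receptors. Its gene lies at chr1:169655501-169695813 on the plus strand (mm10, as are all coordinates here). Rgs5 was at 0.53 (3L), 4.39 (3R), 3.27 (4R) and 0.74 CPM (5L) in the iron negative libraries and at 15.5 (3L), 193 (3R), 178 (4R) and 45 CPM (5L) in the iron positive ones. The lowest iron positive value was thus above the highest iron negative value, while the iron positive libraries themselves spanned a 12.5-fold range. The mean rose from 2.23 ± 1.9 to 108 ± 90.7 CPM (SD, n = 4 in each). The log2 fold change was 5.61 with an SE of 0.98 (edgeR adjusted p = 0.0176).

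Kcnj8 and Abcc9 encode the pore Kir6.1 and the sulfonylurea receptor SUR2, the 2 kinds of subunit of the vascular ATP-sensitive potassium channel. They are neighbours on the minus strand of chromosome 6, at chr6:142564837-142571614 and chr6:142587862-142702315. Kcnj8 had only 1, 4, 6 and 0 reads in iron negative 3L, 3R, 4R and 5L, against 16, 284, 270 and 50 reads in the iron positive libraries of the same tags. In CPM that was 0.127 ± 0.126 and 7.27 ± 6.77, a log2 fold change of 5.8 ± 1.15 (edgeR adjusted p = 0.0198) whose size is loose because it starts from 11 reads in all. Abcc9 was measured at 0.27 (3L), 1.02 (3R), 0.67 (4R) and 0.61 CPM (5L) in the iron negative libraries and at 1.4, 31.2, 22.1 and 4.45 CPM in the iron positive ones. Its log2 fold change was 4.52 ± 0.97 (edgeR adjusted p = 0.0231), and iron positive 3L lay only just above the highest iron negative library. On tags 3L and 5L alone, a fit chosen after the values were seen, 5 of the 10 genes were called higher and 0 lower, against 2.39% and 0.0522% of all genes. There the adjusted p was 0.0502 for Kcnj8 and 0.131 for Abcc9, whose log2 fold change was then 2.72.

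Cspg4, which encodes the NG2 proteoglycan widely used to stain pericytes, behaved unlike the other pericyte genes. It lies at chr9:56865033-56899870. It was at 11.2 (3L), 10.1 (3R), 11.4 (4R) and 11.7 CPM (5L) in the iron negative libraries, the narrowest spread of the 10 genes relative to its mean, and at 7.03, 21.8, 16.3 and 12 CPM in the iron positive ones. The groups overlapped, with iron positive 3L the lowest of all 8 libraries. The log2 fold change was 0.36 ± 0.29 (edgeR adjusted p = 0.444), and without iron positive 3R it was 0.08. In the iron negative libraries Cspg4 was supported by 986 reads in all, of which 87.2% were assigned to its full coding transcript.

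Notch3 and Mcam mark pericytes and smooth muscle cells alike. Notch3, the Notch receptor of mural cells (chr17:32120820-32166852, minus strand), had levels of 0.27 (3L), 1.12 (3R), 0.94 (4R) and 0.17 CPM (5L) against 4.49, 55.2, 46.7 and 11 CPM in the iron positive libraries. It rose by a log2 fold change of 5.56 ± 0.96 (edgeR adjusted p = 0.0176). Mcam, an adhesion molecule also called CD146 (chr9:44134469-44142727), stood at 1.94, 8.19, 4.88 and 1.04 CPM in iron negative 3L, 3R, 4R and 5L and at 21.9, 229, 131 and 29.5 CPM in the iron positive libraries. Its log2 fold change was 4.69 ± 0.94 (edgeR adjusted p = 0.0199). In both genes the order of the iron positive libraries was 3R, 4R, 5L and 3L.

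Of the smooth muscle type genes, Myh11 and Des rose. Myh11 encodes smooth muscle myosin heavy chain, held to be the most restricted marker of the lineage, and lies at chr16:14194535-14291372 on the minus strand. Myh11 had 3 (3L), 5 (3R), 7 (4R) and 0 reads (5L) in the iron negative libraries and 37, 263, 210 and 80 reads in the iron positive ones. That corresponds to 0.172 ± 0.137 and 6.94 ± 5.24 CPM, a log2 fold change of 5.3 ± 0.86 (edgeR adjusted p = 0.0173). Des encodes desmin, the muscle intermediate filament (chr1:75360329-75368579). Des had 4 (3L), 12 (3R), 10 (4R) and 1 read (5L) in the iron negative libraries and measured 11 (3L), 20.5 (3R), 12.3 (4R) and 5.81 CPM (5L) in the iron positive ones. Its log2 fold change was 5.3 ± 0.62 with the smallest adjusted p of the 10 genes (0.0118, edgeR).

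Acta2 and Tagln, the actin and the actin-binding transgelin (SM22 alpha) of smooth muscle, were the highest of the 10 genes in the iron negative fraction by TPM (estimated counts divided by transcript length and put on a total of 1e+06 in each library) and did not pass. Acta2 (chr19:34241090-34255590, minus strand) had levels of 8.22 (3L), 23.1 (3R), 20.4 (4R) and 19.1 CPM (5L) in the iron negative and at 19.3, 68.1, 41.6 and 26 CPM in the iron positive libraries. Tagln (chr9:45929619-45936058, minus strand) stood at 4.33, 8.48, 6.13 and 6.96 CPM and at 7.68, 25.3, 15.3 and 10.6 CPM. In each gene the iron positive library was the higher of every same-tag pair, and only iron positive 3L fell within the iron negative range. The log2 fold changes were 1.13 ± 0.43 (edgeR adjusted p = 0.114) and 1.18 ± 0.37 (adjusted p = 0.0664). In edgeR with tags entered as blocks, Acta2 reached adjusted p = 0.00774 and Tagln 0.00832, and DESeq2 gave 0.0282 and 0.00959. In either fit 9 of the 10 genes were called higher and 0 lower, against 12.8% of all tested genes called higher in each, and 9.39% (block) and 8.02% (DESeq2) called lower. Scaled on macrophage genes, 8 were called higher and 0 lower, with 25.7% and 0.45% of all genes.

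Little sequence was shared with other genes. Of the 31-base words in the main transcript of each gene, the share that also occurs in another gene of the deposited transcript set was 4.98% in Tagln, all of it in Pcsk7, and 0% to 1.86% in the other 9. Tagln overlaps Pcsk7 on the opposite strand over 108 bases, and the sums do not use strand. For Acta2, whose protein closely resembles the other muscle actins, the share was 1.5%.

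The promoter of Acta2 is shown because it alone held the relaxed CArG matches described next, and that of Rgs5 for comparison as the leading pericyte type gene. Each sequence is the 250 bases before the RefSeq start (GRCm38.p6), 5′ to 3′ on the gene's strand, chr19:34255374-34255623 (minus) and chr1:169655251-169655500 (plus). Capitals mark 2 motifs: CArG boxes with 1 C or G allowed among their 6 inner bases, and CATTCC, the MCAT element, here on its reverse strand.
Acta2: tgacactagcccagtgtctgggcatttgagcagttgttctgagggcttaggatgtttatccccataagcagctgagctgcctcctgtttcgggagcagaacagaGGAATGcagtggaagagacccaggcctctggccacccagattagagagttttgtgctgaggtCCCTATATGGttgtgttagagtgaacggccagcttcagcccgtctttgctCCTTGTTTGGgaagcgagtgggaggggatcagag
Rgs5: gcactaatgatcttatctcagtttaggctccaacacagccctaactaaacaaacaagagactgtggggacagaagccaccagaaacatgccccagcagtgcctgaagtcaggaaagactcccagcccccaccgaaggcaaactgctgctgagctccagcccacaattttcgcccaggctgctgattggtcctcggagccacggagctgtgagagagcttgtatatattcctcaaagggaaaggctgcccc

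RefSeq promoter windows of 300 bases were at hand for 8 of the 10 genes, Myh11 and Tagln not among them, and were searched on both strands. The strict CArG box was in 0 of the 8, against 1.63% of 32851 windows. With 1 C or G allowed in the core, Acta2 alone had matches, the pair in capitals, against 9.98% of windows. CATTCC was in Acta2 and Abcc9 (14.7% of windows), and GTGGGAA, a core site of the Notch partner RBPJ, in none of the 8 (6.38% of windows). The relaxed box and CATTCC were added after the sequences were seen. These are matches of letters and were not tied to the measured levels.

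Set side by side per transcript length, in TPM, the order of the genes differed between the fractions. In the iron negative libraries Acta2 (12.7 ± 5.1 TPM, SD, n = 4) and Tagln (10.8 ± 2.4) led, Mcam (2.19 ± 1.81) and Cspg4 (2.04 ± 0.35) followed, and the other 6 were below 1 TPM on average. In the iron positive libraries Mcam (56.3 ± 54.5 TPM) and Rgs5 (36.9 ± 31.7) led, followed by Acta2 (28.8 ± 17.2), Tagln (19.7 ± 7.9), Des (5.74 ± 2.95), Notch3 (5.7 ± 4.96), Kcnj8 (4.22 ± 3.98), Abcc9 (3.07 ± 2.98), Cspg4 (2.85 ± 1.46) and Myh11 (1.45 ± 1.12). Within the iron positive libraries, Mcam was above Rgs5 in 4 of 4. Rgs5 and Acta2 changed places, with Rgs5 above in 3R and 4R and Acta2 above in 3L and 5L. Des and Notch3, and Abcc9 and Cspg4, likewise took the upper place in 2 libraries each.

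The pericyte type genes were weighed against the smooth muscle type genes by their summed TPM, leaving out Notch3 and Mcam, which mark both. Rgs5, Kcnj8, Abcc9 and Cspg4 together held 11.3% (3L), 10.5% (3R), 14% (4R) and 9.22% (5L) of the sum in the iron negative libraries, and 18.4% (3L), 47.6% (3R), 55.9% (4R) and 32.6% (5L) in the iron positive ones. Every iron positive share lay above the highest iron negative share. The pericyte type sum went from 1.91 to 3.84 TPM over the iron negative libraries to 6.54 to 85.3 TPM over the iron positive ones, and the smooth muscle type sum from 14.9 to 30.9 TPM to 28.9 to 93.8 TPM. Rgs5 and Acta2 carried this pattern: without them the shares were 13.9% to 24.4% in the iron negative and 9.83% (3L), 17.4% (5L), 31% (3R) and 35.1% (4R) in the iron positive libraries, which overlap. By CPM, which does not divide by length, the shares also overlapped (32.6% to 48.4% against 38.3% to 74.4%). The split is a description and was given no test.

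**Figure D2:**
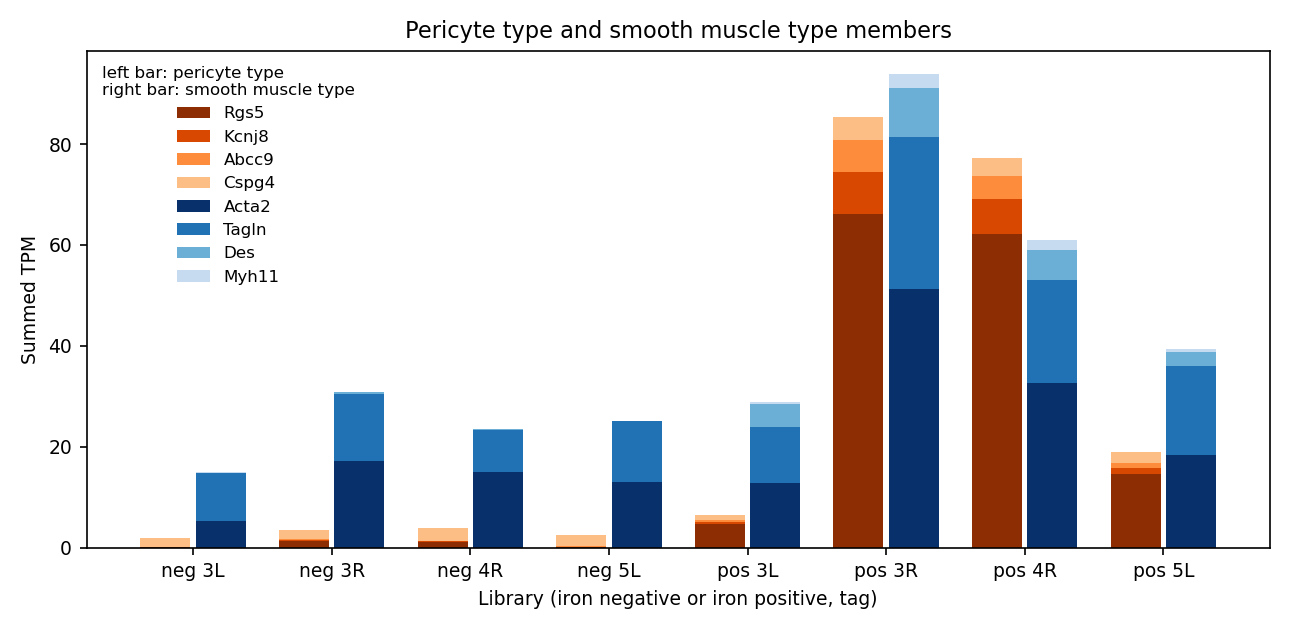
Summed TPM of the 4 pericyte type genes (left bar, reds) and the 4 smooth muscle type genes (right bar, blues) in each library, stacked by gene. Iron negative bars are almost wholly Acta2 and Tagln, with pericyte type sums of 1.91 to 3.84 TPM, while the pericyte type sum exceeds the smooth muscle type sum only in iron positive 4R (77.3 against 60.9 TPM).

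The tables also resolve transcripts, of which Abcc9 and Myh11 have forms known to differ between muscle types. SUR2 exists in forms with different carboxyl ends, SUR2A of heart and skeletal muscle and SUR2B of vascular smooth muscle, which result from use or skipping of an exon near the end of the gene. In Abcc9 that exon lies at chr6:142593967-142594142 and holds 176 bases. It ends the coding sequence of Abcc9-201, Abcc9-202 and Abcc9-204, and of Abcc9-206, whose annotation stops at the stop codon, and Abcc9-203 skips it. The sequence from its first base to its stop codon (capitals), chr6:142594005-142594142 on the minus strand, is shown because its absence defines the form that was counted most.
Abcc9 exon: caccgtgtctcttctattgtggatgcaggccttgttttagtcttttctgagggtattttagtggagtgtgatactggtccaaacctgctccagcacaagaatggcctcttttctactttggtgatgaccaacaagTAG

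Among the estimated counts of these 5 transcripts, Abcc9-203 took 77.7% (3L), 92.2% (3R), 95.1% (4R) and 79.5% (5L) in the iron positive libraries. Together that was 1125 of 1222 estimated counts, or 92%. In the iron negative libraries the 5 transcripts held only 54.2 estimated counts in all. Abcc9-203 took 92.2% of them in 4R, 100% in 5L and 0% in 3L and 3R, so the makeup there was not measurable at this depth. The assignment of reads to transcripts is an estimate made by the authors' software.

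Smooth muscle myosin likewise occurs with or without a small exon in the motor head (SM-B or SM-A) and with or without a small exon that brings an early stop (SM2 or SM1). The head exon is chr16:14248580-14248600, of 21 bases, used by Myh11-204. The tail exon is chr16:14198050-14198088, of 39 bases, used by Myh11-202 and shown to its stop codon (capitals), 31 bases. Both are given on the minus strand, since they tell the 3 coding forms apart.
Myh11 head exon: caaggtccatcttttgcctac
Myh11 tail exon: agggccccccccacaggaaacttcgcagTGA

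In the iron positive libraries Myh11-201, which has neither exon, took 525 of the estimated counts (89%), Myh11-204 with the head exon 51.3 (8.7%) and Myh11-202 with the tail exon 12 (2.03%). The libraries differed: in 3L all 37 counts went to Myh11-204, whereas 3R and 4R were mostly Myh11-201 (249 and 208 counts). The 15 iron negative counts all went to Myh11-202. With this few reads a form can be assigned all of a library's counts or none, and no difference between fractions was tested. Rgs5 (99.9% Rgs5-201 in the iron positive libraries), Des (99.9% Des-201) and Acta2 (98.7% Acta2-201) were each carried by 1 transcript, and Mcam by Mcam-201 (76.5%) and Mcam-202 (21.1%).

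The iron positive libraries shared an order. All 10 genes were highest in iron positive 3R, in all 10 both 3R and 4R exceeded 3L and 5L, and 9 were lowest in 3L, the exception being Des, lowest in 5L. Relative to 3R, Abcc9, Kcnj8, Rgs5, Notch3, Mcam and Myh11 stood at 4.48% to 13.9% in 3L, Acta2, Tagln and Cspg4 at 28.4% to 32.3%, and Des at 53.8%. Markers of other cells moved in the same way. The 12 endothelial markers, summed, came to 1546 (3R), 897 (4R), 232 (5L) and 180 CPM (3L), against 36.2 to 74.4 CPM in the iron negative libraries, and all 12 were called higher. The 12 fibroblast and fibrosarcoma markers summed to 4976, 1832, 591 and 528 CPM in the same libraries, against 140 to 424 CPM, and 7 of 11 tested were called higher. Over all tested genes 8.49% were called higher. The part of these other markers in the mural result was not tested.

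Skeletal muscle markers followed another order, 64 (3R), 49.9 (3L), 28.1 (4R) and 20.7 CPM (5L), against 3.22 to 5.8 CPM in the iron negative libraries, with 8 of 9 tested called higher. Over all tested genes 8.49% were called higher. The highest gene of the skeletal muscle list was the skeletal actin Acta1. Des, which skeletal muscle also uses, was the mural gene whose level in 3L stayed nearest to that in 3R, as the muscle sum did (78% of 3R). The muscle precursor genes Pax7 and Myod1 were at or near 0 in every library (at most 0.15 CPM). The part of skeletal muscle RNA in the Des values was not tested. Of the Schwann cell markers, Sox10 had 0 reads in all 8 libraries.

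**Figure D3:**
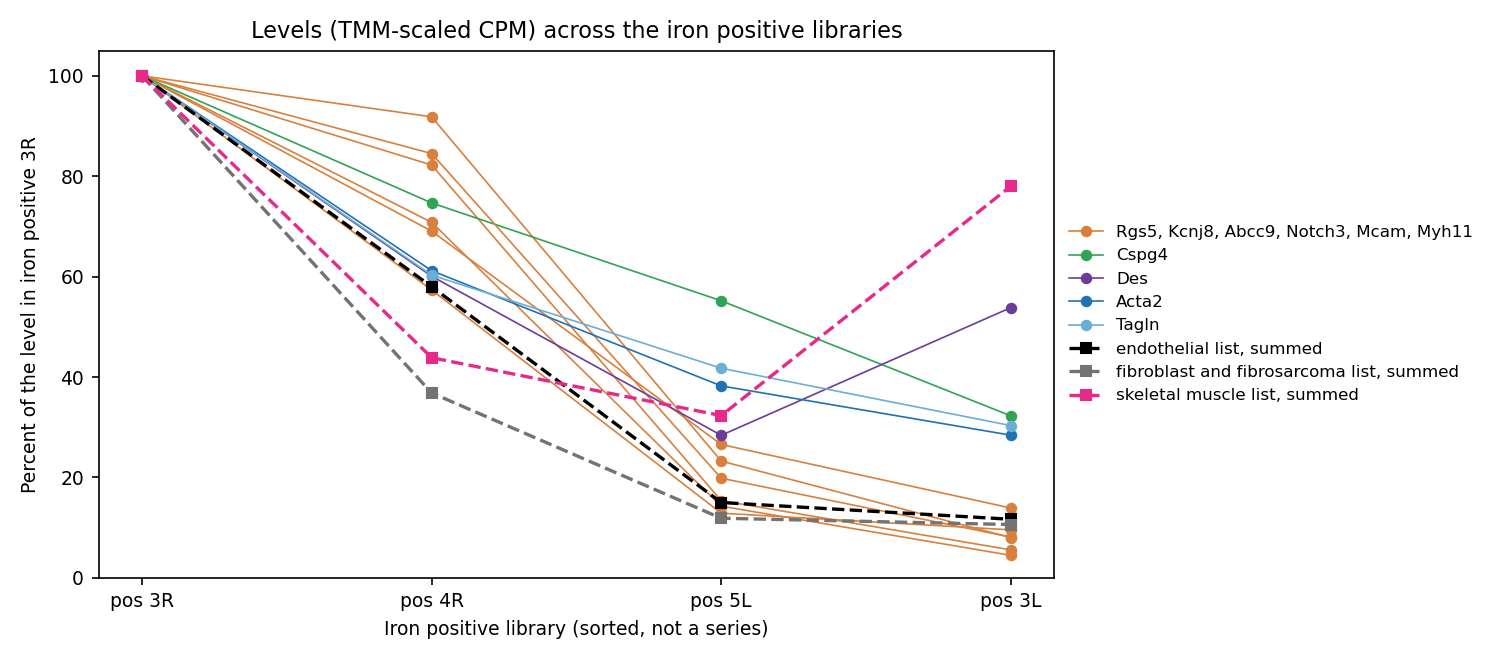
Level of each mural gene (circles) and of 3 summed marker lists (squares, dashed) in the 4 iron positive libraries, as percent of the TMM-scaled CPM in 3R. The lines only join points of 1 gene or list; libraries are sorted by the endothelial sum and Des and the skeletal muscle list are the ones that stand higher in 3L than in 5L.

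Although levels varied widely, the ratio within a tag varied less for some genes. For genes with at least 4 reads in every library, the iron positive level divided by the iron negative level of the same tag was 29.2 (3L), 44.1 (3R), 54.3 (4R) and 60.9 (5L) for Rgs5. For Mcam it was 11.3, 28, 26.9 and 28.3, and for Notch3 16.9, 49.3, 49.7 and 63. Abcc9 was less even, at 5.26 (3L) and 7.3 (5L) but 30.4 (3R) and 32.8 (4R). Acta2 ranged from 1.36 to 2.95, Tagln from 1.52 to 2.98 and Cspg4 from 0.626 to 2.16. Measured against the endothelial cadherin Cdh5 in TPM, Rgs5 stood at 0.342 (3L), 0.5 (3R), 0.882 (4R) and 0.926 (5L) in the iron positive libraries, and at 0.031 to 0.246 in the iron negative ones. Rgs5 was thus lower relative to Cdh5 in every iron negative library. Notch3 over Cdh5 overlapped between the fractions, at 0.0638 (3L), 0.0782 (3R), 0.136 (4R) and 0.124 (5L) in the iron positive and 0.0251, 0.0546, 0.143 and 0.00376 in the iron negative libraries, with iron negative 4R the highest of all 8.

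Other mural genes were taken from lists drawn up by name, with earlier results of these data known. Of 20 wider pericyte genes 13 were tested, and 8 were called higher and 0 lower, against 8.49% and 5.21% of all tested genes. Their median log2 fold change was 2.32 (-0.01 over all tested genes). The smallest adjusted p belonged to Gucy1b1 and Gucy1a1, the subunits of the nitric oxide receptor guanylate cyclase, and Ndufa4l2, a mitochondrial protein abundant in pericytes. Gucy1b1 went from 0.04, 0, 0.04 and 0 CPM in iron negative 3L, 3R, 4R and 5L, which is 2 reads, to 0.55, 5.14, 6.58 and 1.28 CPM (edgeR adjusted p = 0.0173). Ndufa4l2 rose by 3.77 ± 0.76 (adjusted p = 0.0204) and Gucy1a1 by 3.53 ± 0.75 (adjusted p = 0.0228) on the log2 scale. The other 5 that rose were Cd248, Ednra, Pdgfrb, Pde5a and Ebf1. Pdgfrb, the receptor that recruits pericytes, went from 3.52 ± 1.98 to 36.9 ± 35.9 CPM (edgeR adjusted p = 0.029). P2ry14 was lower in all 4 same-tag pairs (15.4 ± 1.4 to 11.7 ± 1.5 CPM) but was not called (log2 fold change -0.4 ± 0.12, edgeR adjusted p = 0.0597). Tbx18, Art3 and Cox4i2 were not called either, with log2 fold changes of 1.5, 0.92 and 0.38. Anpep, an aminopeptidase of brain pericytes that myeloid cells also carry, was near 100 CPM in both fractions (102 ± 15 and 101 ± 20, log2 fold change -0.01 ± 0.15, edgeR adjusted p = 0.969). The count was 1 without iron positive 4R and 0 without any iron negative library (11 at an unadjusted p under 0.05 in each of those 4 fits), where 2.96% and at most 0.191% of all tested genes were called higher.

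Of 20 wider smooth muscle genes 12 were tested, 3 rose and 1 fell (8.49% and 5.21% of all tested genes), with a median log2 fold change of 1.46. Mylk, the kinase that starts smooth muscle contraction, rose by 4.48 ± 0.75 (0.745 to 16.7 CPM, edgeR adjusted p = 0.0173). Aoc3, an amine oxidase of the smooth muscle surface, rose by 4.87 ± 0.89 (adjusted p = 0.0183). Synpo2, an actin-binding Z-disc protein, also rose. Ramp1, a partner of the calcitonin receptor-like receptor, fell by 0.9 on the log2 scale (SE 0.2, 11.6 to 6.2 CPM, edgeR adjusted p = 0.0252). The other tested genes of this list did not pass. Their log2 fold changes were 1.73 for Mustn1, 1.67 for Smtn, 1.53 for Myl9 and 1.4 for Cald1. Those of Tpm2, Csrp1, Tpm1 and Itga8 were 0.88, 0.66, 0.56 and -0.1. With tags as blocks 7 of the list were called higher and with DESeq2 6, against 12.8% of all tested genes in each fit. Without iron positive 3L or 5L the counts were 7 and 6 (10.3% and 11% of all tested genes). Without any iron negative library 0 were called in edgeR (9, 8, 8 and 8 at an unadjusted p under 0.05). In those fits at most 0.191% of all tested genes were called higher.

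**Figure D4:**
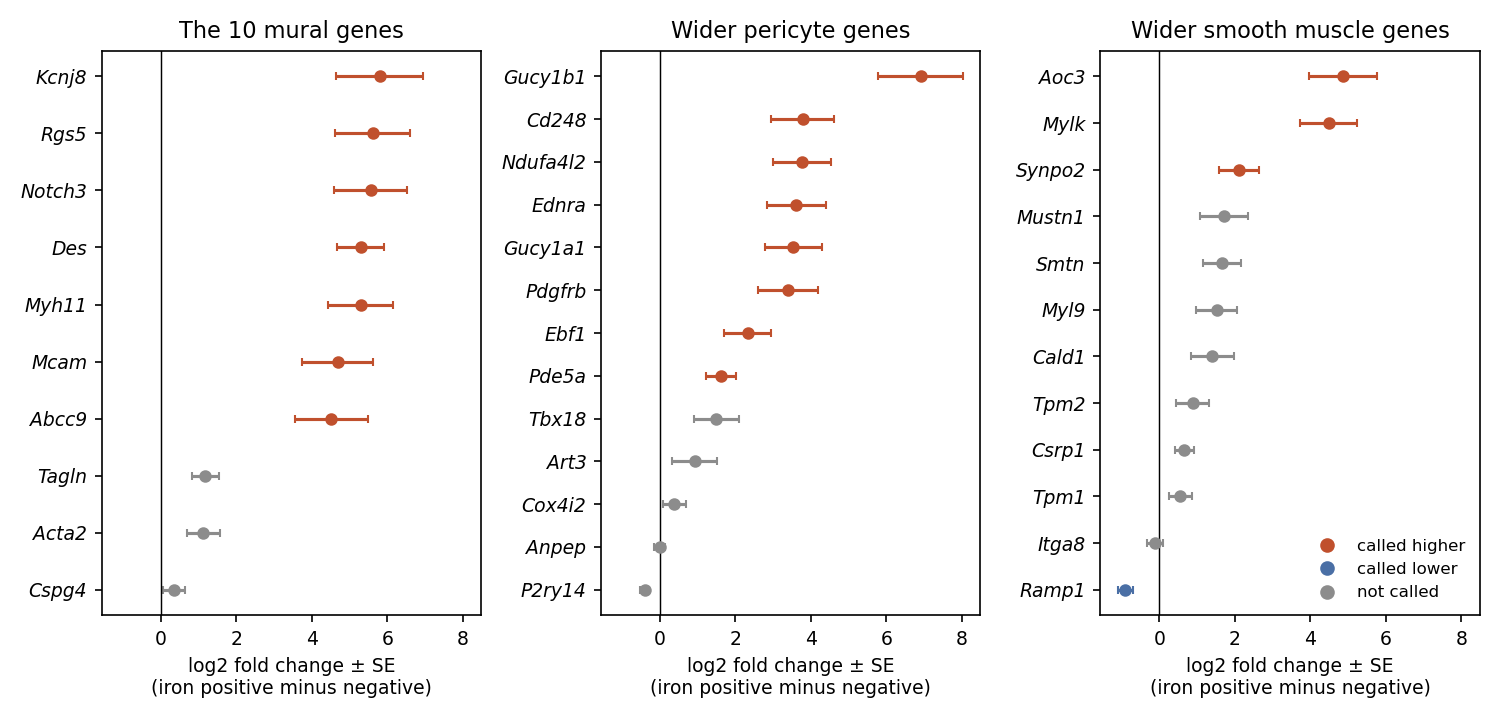
Log2 fold changes (points) with their SE (bars), iron positive minus iron negative, for the 10 mural genes and the tested genes of the 2 wider lists, coloured by call in edgeR. Called genes lie mostly above 2, and Acta2, Tagln and Cspg4 lie between 0 and 2 and are not called.

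Notch3 ligands and Notch targets were also listed. Of 10 genes 8 were tested, and 5 were called higher and 0 lower, against 8.49% and 5.21% of all tested genes. Those that rose were the ligands Dll4, Jag1 and Dll1 and the targets Hey1 and Nrarp. The target Hes1 went from 61.8 ± 28.3 to 47.8 ± 20 CPM and was not called (log2 fold change -0.37 ± 0.38, edgeR adjusted p = 0.549). The ligand Jag2 was not called either (1.02 ± 0.35, edgeR adjusted p = 0.0847). Dll4 rose by 5.93 ± 0.95 and Hey1, a repressor induced by Notch, by 4.89 ± 0.78 on the log2 scale (edgeR adjusted p = 0.0173 for both). Nrarp, a feedback inhibitor, rose by 4.26 ± 0.78 (adjusted p = 0.0183). Rbpj, the DNA-binding partner of all Notch receptors, stood at 288 to 323 CPM and 238 to 321 CPM and was not called (-0.09 ± 0.09, edgeR adjusted p = 0.574). Of 10 regulators of the mural programme 7 were tested, 3 rose (Foxc1, Mrtfb and Tbx2) and Mef2c fell. Foxc1, a forkhead factor of mural cells, rose by 3.23 ± 0.58 (edgeR adjusted p = 0.0177), Mrtfb, a cofactor of serum response factor, by 0.79 ± 0.15 (adjusted p = 0.0183) and Tbx2, a T-box repressor, by 4.52 ± 0.91 (adjusted p = 0.0202). Srf itself was at 56 to 63.6 CPM and 51.8 to 59.5 CPM. Myocd, which encodes myocardin, was at 0.3 CPM or less in every library and was not tested.

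Genes whose profile over the 8 libraries was nearest to that of Rgs5 and of Myh11 were sought among 11802 others, by the root mean square difference of centred log2 values (CPM plus 0.5). Nearest to Rgs5 were Lama5 (0.32 log2 units), Esam (0.35), Sox18 (0.35), Podxl (0.36) and Adamts1 (0.36). Esam is an endothelial adhesion molecule, Sox18 an endothelial transcription factor and Lama5 a laminin chain of vascular basement membrane. Nearest to Myh11 were Lmcd1 (0.17), Cyyr1 (0.19), Fzd4 (0.19), Meox2 (0.19) and Unc45b (0.21). Myh11 was at most 0.31 CPM in the iron negative libraries, under the 0.5 added, so differences there were shrunk. Of the genes nearest to it, only Fzd4 averaged above 0.5 CPM in those libraries (1.55 CPM). The measure covers the 4 pairs only and mixes the difference between the fractions with that between tags.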

How the data were processed

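The authors made transcript tables with kallisto 0.46.2 on mm10, per the submitters' processing notes. Which transcript release they used was not given in the sources used here. Per the file headers, each deposited table holds the estimated counts (not normalized, not always whole), the TPM values (scaled by the authors' run for effective length and library total) and, as other values, transcript lengths. Transcripts were joined to GENCODE mouse release 21 (GRCm38) by identifier without version: 116728 of 119414 matched, and the rest held 0.888% to 0.961% of counts and were left out. Estimated counts and TPM were summed per gene, and counts rounded for testing.

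Genes were filtered with filterByExpr, scaled by TMM and fitted with edgeR 4.0.16 (R 4.3.3), fraction only, with Benjamini-Hochberg adjustment over all 13343 genes. SEs are the coefficient over the square root of F. Deviations of same-tag libraries from their fraction mean correlated across genes at 0.53, 0.52, 0.27 and 0.3 for 3L, 3R, 4R and 5L. The highest correlation of each iron positive library with another tag was 0.13, 0.21, 0.26 and 0.23. Pairing by tag was thus clear for 3L and 3R, while the margin was small for 4R and 5L. The blocked fit stands beside results it changes. Alternatives were DESeq2 1.42.0, limma 3.58.1 on log2(TPM + 0.1) and log2(TPM + 1), other scalings, no filter and leaving out each library. The 10 genes and all lists were chosen with earlier results of these data known. From each mural list up to 3 genes were named by smallest adjusted p (where none passed, the 2 most expressed), and for profiles the 5 nearest genes with a mean of at least 1 CPM. Others named (Cd248, Ednra, Pdgfrb, Pde5a, Ebf1, Anpep, Synpo2, Smtn, Myl9, Cald1, Tpm1, Tpm2, Csrp1, Ramp1, Dll1, Jag1, Rbpj, Mef2c, Srf and Myocd among them) were chosen after their values were seen.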

Additional observations from a re-analysis of the deposited data

How the results depend on the processing

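The count of mural genes called higher (7) stayed within 1.5-fold with the tag as a replicate block (9), DESeq2 (9), relative log expression (7), library totals (7), macrophage scaling (8), no filter (7), log2(TPM + 0.1) (6) and on tags 3L and 5L alone (5), but was 3 on log2(TPM + 1). Leaving out 1 library gave 0 to 8. The wider pericyte count (8) was 4 and 0 on the log2(TPM + 0.1) and log2(TPM + 1) scales, 1 on tags 3L and 5L, and 0 to 12 with 1 library left out. The TPM + 1 scale gave 8 of these at an unadjusted p under 0.05. The wider smooth muscle count (3) was 7 with the replicate block, 6 with DESeq2, 7 with macrophage scaling, 6 with no filter, 1 on log2(TPM + 1), 1 on tags 3L and 5L, and 0 to 7 with 1 library left out. For comparison, the share of all tested genes called higher was 8.49% in the main fit, 12.8% with the block, 12.8% with DESeq2 and 25.7% with macrophage scaling. It was 8.56% with relative log expression, 8.78% with library totals and 5.99% with no filter. On the log2(TPM + 0.1) and log2(TPM + 1) scales it was 5.29% and 3.1%, on tags 3L and 5L 2.39%. With 1 library left out it was 0% to 11%. The causes of these changes in count were not tested. Of 170 values of single genes under an alternative, 127 kept direction and call, 36 lost the call, 6 gained it and 1 reversed: Cspg4 was -0.27 on tags 3L and 5L. The mean pericyte type share was 38.6% in iron positive and 11.3% in iron negative libraries, against 59.5% and 37.7% by CPM, and 23.3% and 17.5% without Rgs5 and Acta2. Under macrophage scaling the all-gene median log2 fold change was 0.29. Depth limits Kcnj8, Myh11, Des and Notch3 in the iron negative libraries, which held 11, 15, 27 and 54 reads of them.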

Other observations

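Several mural genes were too low to be tested, 7 of the wider pericyte and 8 of the wider smooth muscle list. Values of some are given as a description, and the genes named were chosen after their values were seen. Higd1b, a pericyte gene of unknown role in vessels, stood at 2.67 (3R), 3.49 (4R), 0.57 (5L) and 0 CPM (3L) in the iron positive libraries, against at most 0.097 CPM in the iron negative ones. Vtn, which encodes vitronectin, stood at 3.18, 3.66, 0.84 and 0.35 CPM in the same libraries, against at most 0.31 CPM. Heyl, a Notch target of smooth muscle from the Notch list and also not tested, stood at 9.38, 6.28, 1.45 and 0.15 CPM, the last within the iron negative range. Lmod1, a leiomodin of smooth muscle, reached 1.66 CPM in 3R and was at 0.25 CPM or more in every iron positive library, with 2 reads in all iron negative ones. Not all went this way. Cnn1 of the smooth muscle list was higher in 2 same-tag pairs and lower in 2 (0.099 and 0.166 CPM on average in iron negative and iron positive). Atp13a5 of the pericyte list was at 0 CPM in every library. Of the genes not tested, 2 of the 7 pericyte and 4 of the 8 smooth muscle genes had every iron positive library above every iron negative one, against 1.86% of all 22632 genes not tested and 4.94% of the 8510 of them with a read.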
